A study of Mus musculus with 4 samples.

Results

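The genes described here are the translesion DNA polymerases with their partners, and Rif1 with its partner Trp53bp1. They are Rev3l, Rev1, Mad2l2, Polh, Poli, Polk, Rad18, Primpol, Rif1 and Trp53bp1, matched by symbol, and all 10 were found among the 22063 genes of the deposited table. They were selected on the log2 fold changes between the groups, with those of Rev3l and Rif1 already known to be among the lowest. Their differences between the groups are therefore given as a description and without p-values. How many of them met the threshold applied to all genes is counted beside the share of all genes that did, and nothing is read from it.

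RNA was sequenced from ID8 cells, a mouse ovarian cancer line, that carried either a control short hairpin RNA (shCtrl, 2 libraries) or one against USP9X (shUSP9X, 2 libraries), a deubiquitinase that removes ubiquitin from other proteins. The comparison asks how the transcriptome differed once USP9X was knocked down. The study's hairpins were cloned into a lentiviral vector with a puromycin resistance gene. The descriptions of the shUSP9X libraries read shUSP9X-21 and shUSP9X-22, and what these digits stand for is not explained. Which USP9X hairpin the sequenced cells carried, whether a cytokine was added and at which oxygen level they grew are not given in the sources used here. Nothing in the labels says that the 2 libraries of a group came from separate infections, so the spread between them may be technical. Library totals of the estimated counts were 17232006 and 15611363 for shCtrl 1 and 2, and 19978889 and 17021261 for shUSP9X 1 and 2.

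When a replicative polymerase stalls at a damaged base, RAD18 attaches ubiquitin to the sliding clamp PCNA, and translesion polymerases are recruited to copy past the lesion with low fidelity. REV1 acts as a scaffold and inserts the base opposite some lesions, polymerases η, ι and κ (Polh, Poli, Polk) insert opposite others, and polymerase ζ, built on the catalytic subunit REV3L and the adaptor MAD2L2 (also called REV7), extends from there. PRIMPOL takes another way and primes DNA synthesis again beyond the lesion. MAD2L2 also belongs to the shieldin complex, which is brought to DNA breaks by 53BP1 (Trp53bp1) and RIF1 and protects the ends from resection. RIF1 in addition carries the phosphatase PP1 to replication origins, where it opposes the kinase CDC7-DBF4 and sets the timing of replication. Tolerance of damage by these polymerases is known for its part in the response of tumour cells to platinum drugs.

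Usp9x, the target, was lower in the shUSP9X libraries. Its estimated counts were 5169 and 4453 in shCtrl and 390 and 346 in shUSP9X. As CPM, the count scaled to the size of its library with edgeR's TMM factors, this was 290 ± 11.6 in shCtrl and 20.1 ± 0.570 in shUSP9X (mean ± SD, n = 2 in each group, as for every mean ± SD below). The 2 groups did not overlap, and the log2 fold change, always shUSP9X over shCtrl, was -3.85 ± 0.06 (SE). The mouse sequences that the study's hairpins were designed to match are shown here because they are what was aimed at Usp9x, and the capitals mark the 7 bases that the seed of the guide strand would pair with.
shUSP9X#2: gataattgcagccCTTATTAa
shUSP9X#3: tcgtaatgtatgcCAATTTAg
Both are 21 bases long and lie in Usp9x on the plus strand of chromosome X (GRCm38), the former at chrX:13107160-13107180 in exon 7 of 45 and the latter at chrX:13159883-13159903 in exon 38. Among the genes tested, each had an exact match in the transcript of 1 gene only, Usp9x itself. The longest run of bases that either target shared with the transcript of one of the 10 genes was between 5 and 9 bases. Seed sites in the 3′ UTR were found in Primpol, 1 for each target, and in none of the other members. Among the 11416 coding genes tested, 8.0% held such a site for shUSP9X#2 and 8.4% for shUSP9X#3. In the coding sequence, Rev3l, Polk and Rad18 each held 1 seed site for shUSP9X#2 and Trp53bp1 held 1 for shUSP9X#3, beside 3.9% of those coding genes for either target. The part of the seed sites in the results was not tested.

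Within the 10 genes, Rev3l and Rif1 stood apart from the rest. Rev3l was 9.19-fold lower and Rif1 12.4-fold lower in shUSP9X, Polk was 2.52-fold lower, and the other members lay between 1.41-fold lower (Primpol) and 1.62-fold higher (Mad2l2). Ordered from the lowest log2 fold change among the 11448 genes tested, Rif1 came at place 51 and Rev3l at place 99, against place 805 for Polk and 10533 for Mad2l2.

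**Figure D1:**
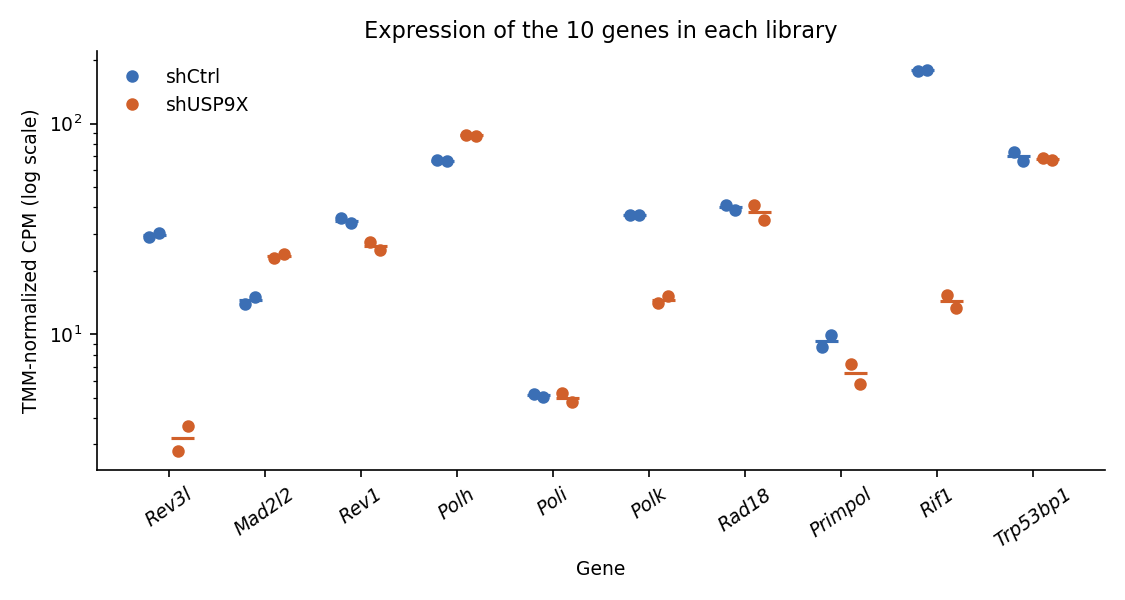
Each dot is the TMM-normalized CPM of 1 gene in 1 library on a log axis, and the lines mark the mean of the 2 libraries of a group. The dots of the groups are furthest apart for Rif1 (179 against 14.4 CPM) and Rev3l (29.5 against 3.23 CPM), and they overlap for Poli, Rad18 and Trp53bp1.

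Rev3l, the catalytic subunit of polymerase ζ, lies at chr10:39732118-39875211 on the plus strand. Its counts were 500 and 477 in shCtrl and 55 and 62 in shUSP9X, or 29.5 ± 0.943 against 3.23 ± 0.634 CPM. Both shUSP9X libraries were far below both shCtrl libraries, with a log2 fold change of -3.20 ± 0.14. With so few counts left in shUSP9X, its SE was wider than that of Rif1 (0.07).

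Of the partners of REV3L, Mad2l2 was higher in shUSP9X and Rev1 lower, by far less than Rev3l. Mad2l2 (chr4:148130384-148145699, plus strand) had counts of 242 and 238 in shCtrl and of 455 and 404 in shUSP9X, a log2 fold change of 0.70 ± 0.11, and both shUSP9X libraries were above both shCtrl libraries. Rev1 (chr1:38052786-38129801, minus strand) had estimated counts of 614.95 and 531.83 in shCtrl and of 542.2 and 424.54 in shUSP9X, or 34.5 ± 1.29 against 26.3 ± 1.55 CPM. On the CPM scale the groups did not overlap, with a log2 fold change of -0.39 ± 0.09. Exons of Rev1 share 1643 bases with exons of Eif5b on the other strand. No strand setting is given in the sources used here, so reads of these 2 genes from the shared bases cannot be told apart. Eif5b, a translation initiation factor, had counts of 4095 and 3563 in shCtrl and of 1275 and 1213 in shUSP9X, and the part of these reads in the value of Rev1 was not tested.

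The inserter polymerases went 3 ways. Polk (chr13:96480690-96542579, minus strand), the polymerase that copies past bulky adducts on guanine, had counts of 639 and 579 in shCtrl and of 278 and 255 in shUSP9X, with a log2 fold change of -1.33 ± 0.10. Polh (chr17:46171355-46202645, minus strand), which copies accurately past ultraviolet dimers, had counts of 1168 and 1046 in shCtrl and of 1749 and 1471 in shUSP9X, with a log2 fold change of 0.40 ± 0.06. The groups did not overlap for either gene, Polk being lower and Polh higher in both shUSP9X libraries. Poli, on chromosome 18, had counts of 90 and 80 in shCtrl and of 104 and 80 in shUSP9X. Its CPM values overlapped between the groups, with a log2 fold change of -0.03 ± 0.20, and at about 5 CPM a difference smaller than that error was not detectable at this depth.

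Rad18 and Primpol showed small differences or none beyond the spread. Rad18 (chr6:112619850-112696686, minus strand), the ligase for PCNA, had counts of 714 and 616 in shCtrl and of 807 and 588 in shUSP9X, and its CPM values overlapped (log2 fold change -0.08 ± 0.08). Primpol (chr8:46575594-46617212, minus strand), the primase-polymerase, had estimated counts of 150.81 and 156.08 in shCtrl and of 142.86 and 98.34 in shUSP9X. Its CPM values did not overlap, at 9.29 ± 0.819 against 6.53 ± 1.00, with a log2 fold change of -0.50 ± 0.17. The second shUSP9X library was the lower of its group, and without it the log2 fold change was -0.35. Exons of Primpol share 1069 bases with exons of Cenpu on the other strand, where the same limit on strand applies, and Cenpu had counts of 248 and 211 in shCtrl and of 280 and 228 in shUSP9X.

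Trp53bp1, which acts with Rif1 at DNA breaks, did not follow it. Rif1 (chr2:52072832-52122383, plus strand) had counts of 3087 and 2845 in shCtrl and of 304 and 225 in shUSP9X, or 179 ± 1.35 against 14.4 ± 1.43 CPM. Both shUSP9X libraries were far below both shCtrl libraries, with a log2 fold change of -3.63 ± 0.07, close to that of Usp9x itself. Trp53bp1 (chr2:121193281-121271407, minus strand) had estimated counts of 1272.75 and 1053.9 in shCtrl and of 1354.65 and 1133.95 in shUSP9X. Its CPM values overlapped between the groups, with a log2 fold change of -0.04 ± 0.06. Exons of Trp53bp1 share 2130 bases with exons of Tubgcp4 on the other strand, and Tubgcp4 had counts of 1477 and 1378 in shCtrl and of 1595 and 1413 in shUSP9X.

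By the rule applied to all genes, an adjusted p under 0.05 in edgeR's quasi-likelihood test with Benjamini-Hochberg adjustment, 33.6% of the genes tested were lower and 33.8% were higher in shUSP9X. Of the 10 genes, 5 met it as lower (Rev3l, Rif1, Polk, Rev1 and Primpol), 2 as higher (Mad2l2 and Polh) and 3 as neither. Primpol lost this call in DESeq2, without the second shCtrl or the second shUSP9X library, and in other settings given below. The choice of the genes drew on this same contrast, so nothing is read from how many were called. Their median log2 fold change was -0.23, beside -0.0005 over all genes tested. The libraries of a group were much alike (common biological coefficient of variation 0.0352).

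On the FPKM scale, which accounts for transcript length and so allows levels of different genes to be compared, Rif1 stood highest in shCtrl at 25.4 ± 0.620. It was followed by Polh (21.2 ± 0.0304), Rad18 (15.9 ± 0.367), Trp53bp1 (12.1 ± 0.121), Rev1 (10.5 ± 0.309), Mad2l2 (10.4 ± 0.359), Polk (9.52 ± 0.156), Primpol (3.89 ± 0.182), Rev3l (2.93 ± 0.249) and Poli (1.93 ± 0.0290). Rev1 and Mad2l2 were the neighbours whose libraries overlapped, and all other neighbours were separate. In shUSP9X the order began with Polh (27.4 ± 0.536) and Mad2l2 (17.6 ± 0.892), and Rif1 came eighth of 10 at 2.25 ± 0.580 FPKM, overlapping Poli at 1.83 ± 0.103 FPKM. Rev3l was the lowest of the 10 in shUSP9X, at 0.408 ± 0.0389 FPKM. In the control cells the transcript of the extender polymerase was among the scarcest of the 10, while that of Rif1 was the most abundant.

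The 3 genes that were lowest share a low GC content. The selection did not use GC content itself, but over all genes the log2 fold change moved with it, as given below. This shared trait is therefore not independent of the selection. Transcripts of Rif1 (39.3% G and C, 8509 bases), Polk (41.6%, 4225 bases) and Rev3l (42.4%, 10713 bases) had the lowest GC content of the 10, while that of Mad2l2, the gene with the highest log2 fold change, had the highest (57.9%, 1535 bases). Rif1 and Rev3l also hold very long coding exons, of 3090 bases in exon 30 of 36 and of 4153 bases in exon 13 of 32. Their lengths differed, and Polk was about as long as Rev1 (4262 bases, 46.8% GC). Primpol (42.8%) and Rad18 (43.7%) lay close to Rev3l in GC content and were not low as it was. As examples, the 90 bases in the middle of the longest coding exon are printed. They are given for the 3 lowest genes and for Polh and Mad2l2, the 2 higher ones. All run 5′ to 3′ on the strand of the gene (GRCm38, GENCODE M21). Capitals mark runs of at least 5 bases that are all A or T.
Rif1, chr2:52111411-52111500, plus strand: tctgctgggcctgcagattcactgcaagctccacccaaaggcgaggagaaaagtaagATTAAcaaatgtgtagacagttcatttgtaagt
Rev3l, chr10:39823137-39823226, plus strand: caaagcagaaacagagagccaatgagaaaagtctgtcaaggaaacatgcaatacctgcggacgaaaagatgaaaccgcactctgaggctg
Polk, chr13:96483904-96483993, minus strand: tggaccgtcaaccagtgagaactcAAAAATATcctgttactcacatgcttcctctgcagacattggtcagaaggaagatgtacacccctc
Polh, chr17:46172632-46172721, minus strand: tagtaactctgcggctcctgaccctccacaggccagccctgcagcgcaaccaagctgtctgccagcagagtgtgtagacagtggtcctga
Mad2l2, chr4:148140929-148141018, plus strand: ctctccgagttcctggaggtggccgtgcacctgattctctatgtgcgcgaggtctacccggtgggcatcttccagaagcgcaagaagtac
These stretches hold 44.4% (Rif1), 46.7% (Rev3l and Polk), 60.0% (Polh) and 58.9% (Mad2l2) G and C. The whole coding parts of these exons hold 41.8% (Rif1), 40.3% (Rev3l), 41.2% (Polk), 52.1% (Polh) and 59.7% (Mad2l2). The stretches of the 3 lowest genes are thus richer in G and C than their exons. That of Rev3l holds no marked run, like those of Polh and Mad2l2. Over the whole coding sequence, such A and T runs numbered 24.2 per kb in Rif1, 22.1 in Rev3l and 21.1 in Polk, against 10.6 in Polh and 6.32 in Mad2l2 and a median of 8.17 over the 11416 coding genes tested. Primpol and Rad18 held as many, with 26.1 and 24.2 per kb, and were not low in shUSP9X as Rev3l and Rif1 were. The runs are a description of the sequences and not of a site or a cause.

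Across the transcriptome the log2 fold change moved with these properties. Over 11430 genes the Spearman correlation with GC content was 0.441 and that with transcript length was -0.316, across genes of the same 4 libraries, which are not independent replicates. The 763 genes with a GC content of at most 43% and a transcript of at least 4000 bases, the class of Rif1, Rev3l and Polk, had a median log2 fold change of -0.91, and 84.7% of them were lower in shUSP9X by the rule above. In the 6810 genes with more than 43% GC and under 4000 bases, the class of Mad2l2, Polh, Poli and Rad18, the median was 0.16. Rif1 and Rev3l belong to the class with the low median. They were selected with their low values known, so nothing is read from their distance to that median.

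**Figure D2:**
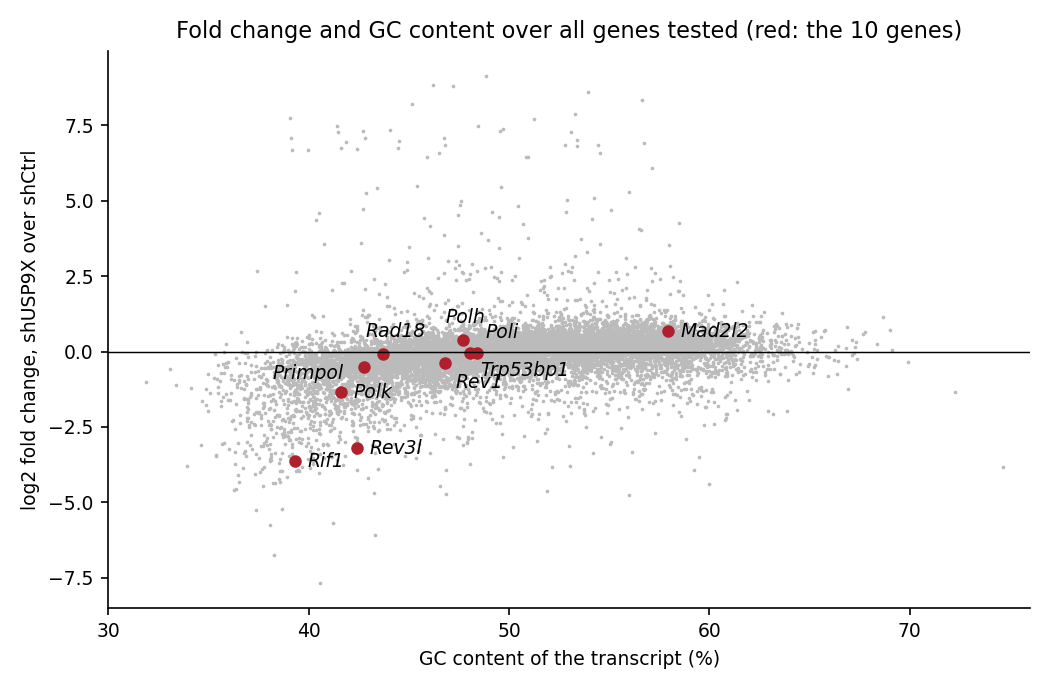
Each grey dot is 1 of the 11430 genes tested with a known GC content, with the GC content of its transcript on the x axis (percent) and its log2 fold change (shUSP9X over shCtrl) on the y axis; red dots are the 10 genes. The cloud falls away below 43% GC, where Rif1 (39.3%) and Rev3l (42.4%) lie at -3.63 and -3.20, while Mad2l2 (57.9%) lies at 0.70.

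Counts were fitted again with an offset that removes each library's trend on GC content and length. The log2 fold change was then -2.32 ± 0.07 for Rif1, -1.97 ± 0.15 for Rev3l and -0.71 ± 0.10 for Polk. These 3 genes stayed lower, by less. Mad2l2 (0.41 ± 0.11) and Polh (0.45 ± 0.05) stayed higher, and Rev1 was at -0.20 ± 0.09. Primpol went to -0.03 ± 0.17, Rad18 to 0.21 ± 0.08 and Trp53bp1 to 0.77 ± 0.06, the widest upward move of the members whose groups overlapped. The offset took Trp53bp1 as an annotated transcript of 9621 bases, while its counts and FPKM values together imply a mean of 5.86 kb in shCtrl and 5.37 kb in shUSP9X. Primpol was taken as 3772 bases, where its counts and FPKM values imply a mean of 2.41 kb in shCtrl and 2.02 kb in shUSP9X. For Usp9x the value with the offset was -2.37 ± 0.06, with an annotated transcript of 11887 bases where counts and FPKM values imply 6.53 to 7.31 kb. Over all genes 27.6% were then called lower and 36.1% higher, and of the 10 genes 4 were lower (Rev3l, Rev1, Polk and Rif1), 4 higher (Mad2l2, Polh, Rad18 and Trp53bp1) and 2 neither. The median of the 10 was -0.04, beside 0.05 over all genes. Whether the trend arose in the cells or in the making of the libraries cannot be told apart, since it separates the same 4 libraries as the groups do.

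**Figure D3:**
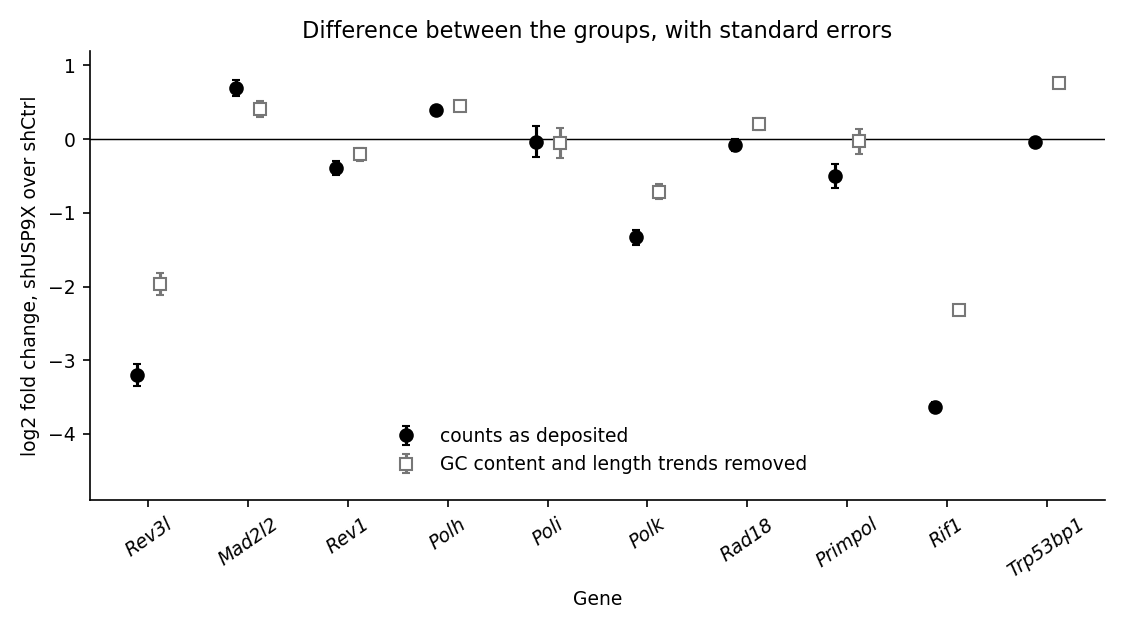
For each of the 10 genes, the log2 fold change (shUSP9X over shCtrl) with its SE is drawn from the counts as deposited (filled) and after the trends on GC content and length were removed (open). Rev3l and Rif1 lie below -3 from the counts and at about -2 with the offset, and Trp53bp1 moves from -0.04 to 0.77.

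The genes that work with these 10 were drawn up as 5 lists of 65 genes, of which 63 could be tested. They went both ways, 21 being lower, 23 higher and 19 neither, beside 33.6% lower and 33.8% higher over all genes, and their median log2 fold change was 0.07. With the offset 14 were lower, 26 higher and 22 neither of 62. Adjusted p below are from edgeR's quasi-likelihood test over all 11448 genes.

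Of the 18 replicative polymerase, clamp and clamp loader genes, 8 rose, 2 fell and 8 did not pass the test, with a median of 0.10. With the offset 3 were lower, 10 higher and 5 neither, and the median was 0.17. The 2 that fell from the counts were Pola1, the catalytic subunit of polymerase α, from 111 ± 2.17 to 30.9 ± 0.799 CPM (log2 fold change -1.84 ± 0.06, adjusted p = 2.9e-19), and Rfc1, the large subunit of the clamp loader, from 189 ± 5.49 to 88.9 ± 1.29 CPM (-1.08 ± 0.05, adjusted p = 9.5e-17). With the offset Pola1 was at -1.09. Pold2 and Pold3 code for subunits that polymerase δ shares with polymerase ζ. Pold3, named after its value was seen, was at 0.04 and did not pass the test. Pold2 rose from 58.4 ± 4.45 to 97.0 ± 1.196 CPM (0.73 ± 0.06, adjusted p = 3.3e-11) and Pold1, the catalytic subunit, from 94.3 ± 6.20 to 131 ± 2.86 CPM (0.47 ± 0.05, adjusted p = 1.1e-08). With the offset Pold2 was at 0.46 and Pold1 at 0.34.

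Of the 17 genes for the ubiquitination of PCNA and the protection of stalled forks, 8 fell, 5 rose and 4 did not pass, with a median of -0.21. With the offset 4 were lower and 8 higher, and the median turned to 0.15. Atad5, which unloads PCNA and brings in the enzyme that takes its ubiquitin off, had counts of 1049 and 921 in shCtrl and of 233 in each shUSP9X library (log2 fold change -2.22 ± 0.09, adjusted p = 2.4e-17). Hltf, a ligase that lengthens the ubiquitin chain on PCNA, had counts of 1208 and 1060 in shCtrl and of 319 and 256 in shUSP9X (-2.12 ± 0.08, adjusted p = 4.4e-18). Both fell also with the offset, by less, at -1.33 and -1.26. Ube2v2, the partner of the conjugating enzyme UBC13, fell from 62.4 ± 0.873 to 23.9 ± 0.318 CPM (-1.38 ± 0.08, adjusted p = 8.3e-15), and this call was lost with the offset (-0.07, adjusted p = 0.4523). Its annotated transcript, of 4207 bases, holds 35.1% GC, less than any of the 10. The offset used this transcript, while the counts and FPKM values of Ube2v2 imply only 1.05 to 1.15 kb. Rpa2, a subunit of the protein that coats single-stranded DNA, rose from 44.7 ± 1.08 to 73.8 ± 3.22 CPM (0.72 ± 0.06, adjusted p = 1.9e-10), and Vcp, the segregase that takes ubiquitinated proteins off chromatin, rose from 637 ± 20.5 to 839 ± 8.23 CPM (0.40 ± 0.03, adjusted p = 6.3e-11).

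Around 53BP1 and RIF1, in the signalling and end protection list of 17 genes, 6 fell, 7 rose and 4 did not pass, with a median of 0.13. With the offset 3 of 16 were lower, 6 higher and 7 neither, with a median of 0.01. Mdc1, Rnf168 and Shld2, named after their values were seen, were no longer called lower, and Shld3 had no GC content and could not be fitted. Atm, the kinase that phosphorylates 53BP1 so that RIF1 can bind it, had counts of 1352 and 1235 in shCtrl and of 313 and 317 in shUSP9X (log2 fold change -2.18 ± 0.08, adjusted p = 2.4e-18). It fell also with the offset, by less, at -1.04. Dclre1c, the nuclease ARTEMIS, fell from 14.7 ± 1.77 to 6.52 ± 1.35 CPM (-1.18 ± 0.16, adjusted p = 2.9e-07). Dynll1, a light chain that binds 53BP1, rose from 121 ± 7.66 to 182 ± 0.376 CPM (0.58 ± 0.05, adjusted p = 4.7e-11). Aste1, a nuclease that works with shieldin, rose from 7.10 ± 0.335 to 9.58 ± 0.887 CPM (0.43 ± 0.16, adjusted p = 0.01966), a call that was lost without the first shCtrl library (adjusted p = 0.07603), without the second shUSP9X library (adjusted p = 0.1532) and in DESeq2 (adjusted p = 0.1588).

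For the 5 genes of PP1 and CDC7-DBF4, the enzymes between which RIF1 acts at origins, 4 fell and 1 rose, with a median of -0.53. With the offset 3 were lower, 1 higher and 1 neither, and the median was -0.24. Dbf4, the activator of the kinase, fell from 162 ± 2.41 to 91.2 ± 2.94 CPM (log2 fold change -0.83 ± 0.05, adjusted p = 4.0e-14) and Cdc7 from 25.1 ± 0.741 to 15.5 ± 0.722 CPM (-0.69 ± 0.11, adjusted p = 2.4e-06). The PP1 catalytic subunit Ppp1cb, named after its values were seen, fell from 322 ± 13.4 to 223 ± 6.61 CPM (-0.53 ± 0.04, adjusted p = 1.1e-11). With the offset it was higher instead (0.35, adjusted p = 1.4e-10). The offset took Ppp1cb as 5962 bases, where its counts and FPKM values imply 4.07 to 4.98 kb. Ppp1cc, another, fell by a small amount (-0.17 ± 0.03, adjusted p = 5.1e-05). Ppp1ca, the remaining PP1 subunit, rose (0.28 ± 0.03, adjusted p = 6.1e-08), and with the offset it was at -0.01 (adjusted p = 0.8706).

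Among 8 polymerases and helicases of other families, 6 could be tested, of which 1 fell and 2 rose. Polq, the polymerase of end joining by microhomology, had counts of 486 in each shCtrl library and of 259 and 214 in shUSP9X (log2 fold change -1.18 ± 0.11, adjusted p = 2.4e-10), and it was at -0.39 with the offset. Polg, the mitochondrial polymerase, rose from 61.4 ± 7.33 to 79.4 ± 0.910 CPM (0.37 ± 0.07, adjusted p = 2.3e-05). Poll rose by 0.32 ± 0.12 (adjusted p = 0.02273), a call lost with the offset (adjusted p = 0.5361), in DESeq2 (adjusted p = 0.1631), in both FPKM fits, and without either the second shCtrl (adjusted p = 0.07054) or the second shUSP9X library (adjusted p = 0.1583). Polb, the base excision repair polymerase, was at -0.08 ± 0.11 (adjusted p = 0.5285).

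**Figure D4:**
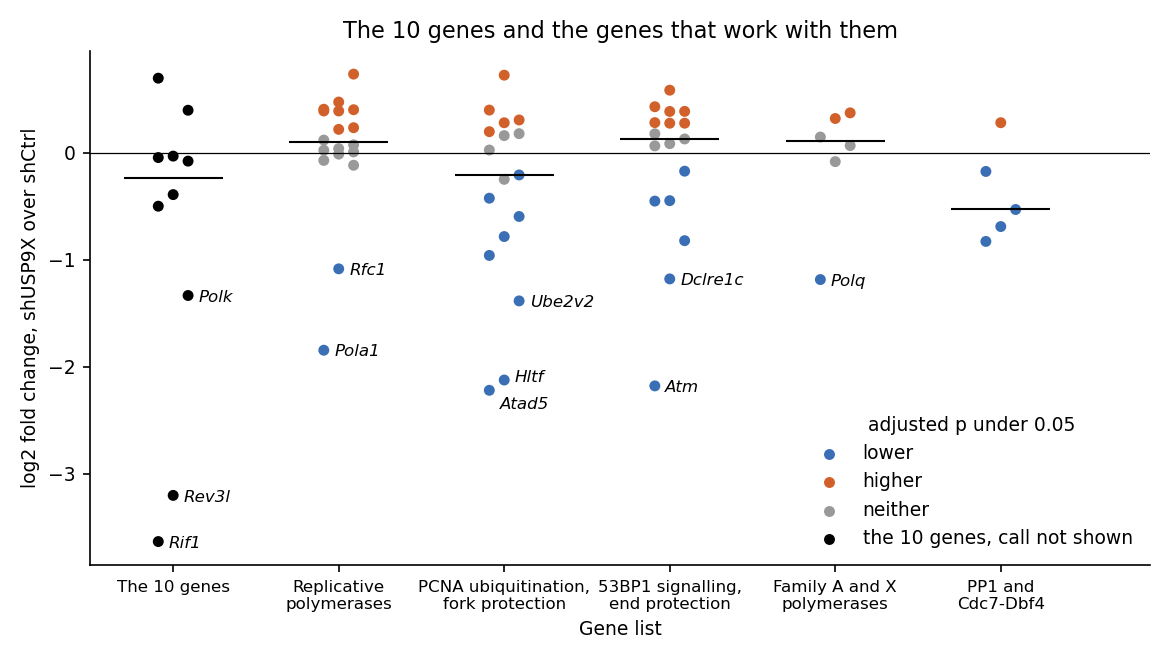
Each dot is the log2 fold change (shUSP9X over shCtrl) of 1 gene that could be tested, by list, with the list's median as a line; black marks the 10 genes, whose calls are not drawn because they were selected on this contrast, and colour marks whether a gene of the other lists was lower, higher or neither at an adjusted p under 0.05. Rif1 (-3.63) and Rev3l (-3.20) lie below every gene of the 5 other lists, of which Atad5 (-2.22) is the lowest. Rif1 and Rev3l were selected with their low values known, so nothing is read from this gap.

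Since most of these genes are used in S phase, 18 genes of replication and proliferation were looked at beside them. Of these 13 rose, 3 fell and 2 did not pass the test, and their summed level was 6052 and 5946 CPM in shCtrl and 5486 and 5467 CPM in shUSP9X. Mki67, the proliferation marker Ki-67, named after its values were seen, had counts of 15778 and 13287 in shCtrl and of 789 and 676 in shUSP9X (log2 fold change -4.45 ± 0.05, adjusted p = 2.2e-29), further down than Rif1 or Rev3l, and was at -3.53 with the offset. Without Mki67 the summed level was higher in shUSP9X, at 5142 and 5106 CPM in shCtrl and 5447 and 5427 CPM in shUSP9X. Top2a, with the highest mean CPM of the list over all 4 libraries, fell from 1206 ± 19.5 to 560 ± 2.53 CPM (log2 fold change -1.11 ± 0.03, adjusted p = 1.2e-20). Rrm1, a subunit of ribonucleotide reductase, rose from 636 ± 3.40 to 727 ± 0.454 CPM (0.19 ± 0.03, adjusted p = 9.6e-06). On the FPKM scale Top2a was at 233 in shCtrl and 106 in shUSP9X, and Rrm1 at 163 and 183. With the offset Top2a was at -0.55 and Rrm1 at 0.54. The part of a change in cycling in the values of the 10 genes was not tested. In bulk RNA, fewer cells that express a gene and less RNA per cell cannot be told apart.

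The labelled cell type was checked against 7 genes of ovarian surface epithelium and its tumours, which summed to 2407 and 2434 CPM in shCtrl and to 2767 and 2715 CPM in shUSP9X. Krt19 and Krt18, keratins, were the highest of them on the FPKM scale in both groups. Their means were 453 and 268 FPKM in shCtrl and 482 and 411 FPKM in shUSP9X. The list did not move as 1, for 3 of its genes rose, 2 fell and 1 did not pass the test. With the offset the balance turned, with 4 lower and 2 higher. Krt8 (log2 fold change 0.92 ± 0.04, adjusted p = 5.5e-18) and Krt18 (0.64 ± 0.04, adjusted p = 1.3e-14) rose. Krt19 rose by 0.12 ± 0.03 (adjusted p = 0.002742), a call lost without the first shUSP9X library (adjusted p = 0.1716) and in both FPKM fits (adjusted p = 0.05677 and 0.05716), and it was lower with the offset (-0.16, adjusted p = 8.7e-06). Wt1, a transcription factor of mesothelium and ovarian surface epithelium, fell from 365 ± 10.3 to 254 ± 2.88 CPM (-0.52 ± 0.04, adjusted p = 4.0e-12), and Msln, mesothelin, from 483 ± 13.1 to 349 ± 3.96 CPM (-0.47 ± 0.04, adjusted p = 1.3e-11). Krt7 had no count in shCtrl and 2 and 3 in shUSP9X. Of 9 immune cell markers, Cd3e, C1qa and C1qb had a count of 0 in all 4 libraries. Their summed level was 0.0577 and 0.0632 CPM in shCtrl and 8.25 and 9.32 CPM in shUSP9X. Itgam, an integrin of myeloid cells, had the most counts of the 9, none in shCtrl and 72 and 75 in shUSP9X. Adgre1, a macrophage receptor, had none in shCtrl and 58 and 59 in shUSP9X. Ptprc had none in shCtrl and 29 and 18 in shUSP9X, while Lyz2, a lysozyme of macrophages, had none in shCtrl and 0 and 2 in shUSP9X. The summed level of the immune markers depends on which genes were listed. It does not measure how much RNA of another gene came from other cells. As CPM, which is not scaled for transcript length, Rev3l (2.78 and 3.68), Poli (5.26 and 4.75) and Primpol (7.24 and 5.82) lay below this summed level in the shUSP9X libraries. The other 7 genes lay above it as CPM, which need not hold on the FPKM scale. There Rif1 was at 2.66 and 1.84 in shUSP9X, beside 1.74 and 0.965 for Itgam and 0.897 and 1.07 for Adgre1. Whether the reads of these markers came from immune cells or from the ID8 cells themselves cannot be told apart in bulk RNA. Their part in the results for the 10 genes was not tested.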

How the data were processed

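Poly(A)-selected RNA from 4 ID8 libraries was sequenced by the authors, who mapped reads to GRCm38. Their processing notes list fastp 0.18.0, Bowtie2 2.2.8, HISAT2, StringTie 1.3.1 and RSEM, without their roles. Estimated counts were deposited for each gene in each library, without normalization. They also deposited FPKM values, scaled for transcript length and library size. The authors' own fold changes were not used. No strand setting is given in the sources used here, and intervals and errors cover no bias of amplification.

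Estimated counts, of which 6.395 to 6.69% were not whole, were rounded. Genes with low counts were removed by filterByExpr, libraries were scaled by TMM, and shUSP9X was compared with shCtrl by edgeR 4.0.16 in R 4.3.3 (glmQLFTest) with Benjamini-Hochberg adjustment over 11448 genes. The SE is the log2 fold change divided by the root of the F statistic. All 10 genes passed the filter. The test had been planned for whole counts. GC content, length, exons and overlaps were taken from GENCODE M21 (GRCm38), 1 transcript per gene, the best APPRIS class and then the longest. The offset removes a loess trend (span 0.3) on both GC content and transcript length from each library. Counts differed between the libraries of a group by more than sampling noise (chi-square per gene 3.36 and 2.09).

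The genes, gene lists and alternatives (DESeq2 1.42.0, limma 3.58.1 on log2(FPKM + 1) and log2(FPKM + 0.1), other scalings and filters, a replicate block, each library left out) were chosen with earlier results of these data known. Named are Usp9x and the 10 genes. In each of the 5 pathway lists, the 2 lowest and 2 highest log2 fold changes and any of at least 1 in size are named. In the marker lists, the 2 genes with the highest mean CPM over all 4 libraries and genes with no count are named. The 5 genes nearest Rev3l are named too. Genes that overlap the 10, Krt7, Krt8, Wt1, Msln, Mki67, Ppp1cb, Pold3, Mdc1, Rnf168, Shld2, Shld3 and any other gene were named after their values were seen.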

Additional observations from a re-analysis of the deposited data

How the results depend on the processing

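The median log2 fold change of the 10 genes, -0.23 from the counts, was -0.20 with upper quartile scaling, -0.26 with library size only, -0.15 with limma-trend on log2(FPKM + 1), -0.18 with limma-trend on log2(FPKM + 0.1), -0.0411 with the GC content and length offset and -0.0428 with the replicate block and that offset. Leaving out each library in turn gave -0.32 to -0.17. The number of the 10 called higher went from 2 to 4 with the offset, with or without the block, as Rad18 and Trp53bp1 passed the threshold, and 2 were called higher in the other settings. The number called lower was 4 or 5, and Primpol was the gene lost, with DESeq2, both FPKM fits, the offset, and without the second shCtrl or the second shUSP9X library. Rev3l, at -3.20, was at -1.48 on log2(FPKM + 1), which understates changes of low values. Rev3l, Rif1 and Polk were lower, and Mad2l2 and Polh higher, in every setting. Genes called lower over the whole table were 2985 to 4031 and genes called higher 3184 to 4152. The shCtrl and shUSP9X libraries share only replicate numbers (correlation of deviations of same-numbered libraries -0.0453). The replicate block gave 3810 lower and 3855 higher genes against 3843 and 3864, and changed no call among the 10 genes. Poli and Primpol, at under 10 CPM in both groups, had the largest SE of the 10 from the counts (0.20 and 0.17). In the fits on log2(FPKM + 1) and log2(FPKM + 0.1) that of Rev3l was the largest (0.13 and 0.24).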

Other observations

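The genes whose profile over the 4 libraries was most like that of Rev3l were sought among 7797 genes with a mean log2 CPM of at least 4, by the Euclidean distance between log2 CPM values centred on each gene's mean. The nearest were Bltp1 (distance 0.144), Zfp638 (0.178), Ppig (0.208), Aspm (0.213) and Nipbl (0.214). Their log2 fold changes were -3.13, -3.18, -3.02, -3.06 and -3.19. Over these 4 libraries a small distance requires a similar difference between the groups. These fold changes therefore follow from the search, and nothing is read from them. Rev3l itself, with a mean log2 CPM of 3.31, lay below the limit set for the other genes. Their transcripts were 6245 bases (Ppig) to 15883 bases (Bltp1) long and held 37.8% (Ppig) to 44.3% (Aspm) G and C. Aspm, which organizes the poles of the mitotic spindle, holds a coding exon of 3795 bases. In the others of these nearest genes the longest coding exon was much shorter, from 838 (Bltp1) to 1608 bases (Nipbl). Over the 137 genes with a coding exon of at least 3000 bases, as in Rif1 and Rev3l, the median log2 fold change was -0.48, and -0.09 with the offset.

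A gene's count divided by its FPKM and by the library's total gives the transcript length that the FPKM value assumes. For Rev3l this was 10.5 and 9.84 kb in shCtrl and 7.22 and 8.35 kb in shUSP9X, a log2 ratio of the means of -0.39. Only 1.55% of 10467 genes had a ratio as low, the middle 90% of genes lying between -0.20 and 0.10. The FPKM values of Rev3l therefore assume a shorter transcript in shUSP9X than in shCtrl. They rest on only 55 and 62 counts in shUSP9X, and the part of low counts in this ratio was not tested. Of the genes nearest Rev3l, Zfp638 was at 5.68 and 5.44 kb in shCtrl and at 3.76 and 5.305 kb in shUSP9X. Bltp1 and Ppig also had 1 lower shUSP9X library (7.33 and 4.28 kb). Aspm stayed at 9.31 to 9.87 kb and Nipbl at 9.421 to 9.425 kb. For Rif1 it was 7.17 and 7.05 kb in shCtrl and 5.72 and 7.19 kb in shUSP9X, and for Primpol 2.33 and 2.49 kb against 2.36 and 1.69 kb, so that in both genes the groups overlapped and 1 shUSP9X library was low. For Rev1 it was 3.32 and 3.31 kb in shCtrl and 3.51 and 3.78 kb in shUSP9X.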
